A study of Mus musculus with 9 samples.

Results

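Albumin, alpha-fetoprotein and 8 other plasma proteins are made in the fetal liver by hepatoblasts, and their transcripts were followed here in erythroblasts sorted from that organ. The 10 genes are Alb, Afp, Apoa1, Apoa2, Apob, Ttr, Trf, Ahsg, Fgb and Rbp4. Their probe sets were chosen by the gene symbol that the platform annotation pairs with each probe set. Every gene had 1 probe set listed for it alone, so 10 of the 19938 genes with a probe set of their own are described. The cells came from mouse embryos at stage E14.5 out of crosses between Th3/+ parents. They were collected by flow sorting for CD71, the transferrin receptor, for the red cell surface marker Ter119 and for high forward scatter. The 9 arrays are 3 from Th3/Th3 embryos, which carry 2 copies of the Th3 beta-thalassemia allele and hence lack the adult beta-globin genes, 3 from Th3/+ embryos with 1 copy, and 3 from wild type embryos with 0 copies. All 3 genotypes share a 129SV background that was backcrossed to C57BL/6 for 9 generations, and the allele is present in every cell of the embryo and not only in erythroid cells. The labels call the replicates biological and do not give how many embryos went into each. No array of unsorted liver was analysed here, so a level cannot be turned into a share of cells.

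Hepatoblasts are the fetal precursors of hepatocytes and bile duct cells, and in the mid-gestation mouse they share the liver with the erythroblasts that mature there. They secrete carriers of lipid, retinol, thyroid hormone and iron as well as clotting proteins, under nuclear factors such as HNF4A, the FOXA proteins and C/EBP alpha. Erythroblasts mature around a central macrophage and make mainly globins, heme enzymes and membrane proteins. An array reads the RNA of every cell in the tube, so a lower signal of a cell type can mean fewer cells of it or less RNA in each, which cannot be told apart here. Which cells the signal of the 10 genes came from was not tested.

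The values are log2 values, and the array medians lay between 4.97 and 5.05. No 2 arrays held identical columns, and replicates of a genotype had rank correlations of 0.986 to 0.994. The sorted population showed its label: all 17 erythroblast markers with a probe set of their own were above the filter level, with means from 8.60 (Tal1) to 12.70 (Slc4a1, the anion exchanger band 3). The filter level is the 40th percentile of each array, 4.52 to 4.62, and a probe set was tested if it exceeded that level on at least 3 arrays. It does not prove expression, since 13 of 26 measured genes of other organs, such as Gfap of astrocytes, also passed it. Among the 10 hepatoblast transcripts 9 passed, each on all 9 arrays. Apoa2, Alb and Apoa1, with means of 9.56, 7.93 and 7.76, averaged above Gfap (7.06), which had the highest mean of those 13. The other members averaged below Gfap. Of these, Ttr, Afp, Trf and Rbp4, at 6.94, 6.82, 6.78 and 6.65, averaged above the next highest of the 13 (6.07). Ahsg, Fgb and Apob, at 5.39, 5.01 and 4.32, averaged below it. Apob, which encodes the structural protein of low-density lipoproteins, exceeded its array's level on 0 of 9 arrays and was not tested.

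Alb encodes albumin, the most abundant plasma protein. Its log2 value was 7.10, 8.0 and 7.94 on the 3 Th3/Th3 arrays and 7.84, 8.0 and 8.64 on the 3 Th3/+ arrays, against 7.53, 8.25 and 8.03 on the 3 wild type arrays. The lowest of the 9 was Th3/Th3 replicate 1 and the highest Th3/+ replicate 3, a 2.91-fold span, and the genotypes overlapped. Afp encodes alpha-fetoprotein, the fetal relative of albumin, and is the next protein-coding gene after Alb on chromosome 5 in RefSeq. It read 6.37, 7.34 and 6.89 in Th3/Th3 cells and 6.28, 6.88 and 7.43 in Th3/+ cells, against 6.56, 6.88 and 6.75 in wild type cells. Again Th3/+ replicate 3 was the highest array, while replicate 1 was the lowest array of each genotype, and the wild type values lay inside the range of both mutant genotypes.

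The promoters of Alb and Afp are shown because these neighbouring genes are the classic pair of liver development. Their values had a Pearson r of 0.75 over the 9 arrays, 3 of each genotype, which is a description with no test. An r of this size was not particular to neighbours. Members on different chromosomes had higher values (Afp with Rbp4, 0.87) and lower ones (Alb with Rbp4, 0.42). The sequences are those of RefSeq on build GRCm38.p6 and run from 250 bases before to 50 bases after the gene's start, on the + strand at chr5:90460620-90460919 and chr5:90490464-90490763. Capitals mark TTGCNNAA, a core of the binding sites of C/EBP factors, searched on both strands like the other motifs named here.
Alb: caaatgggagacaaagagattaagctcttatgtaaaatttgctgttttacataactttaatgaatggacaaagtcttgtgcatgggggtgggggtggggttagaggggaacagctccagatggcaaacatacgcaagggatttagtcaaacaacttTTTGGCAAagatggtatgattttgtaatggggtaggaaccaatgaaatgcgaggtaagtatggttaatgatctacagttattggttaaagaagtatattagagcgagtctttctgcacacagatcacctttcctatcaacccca
Afp: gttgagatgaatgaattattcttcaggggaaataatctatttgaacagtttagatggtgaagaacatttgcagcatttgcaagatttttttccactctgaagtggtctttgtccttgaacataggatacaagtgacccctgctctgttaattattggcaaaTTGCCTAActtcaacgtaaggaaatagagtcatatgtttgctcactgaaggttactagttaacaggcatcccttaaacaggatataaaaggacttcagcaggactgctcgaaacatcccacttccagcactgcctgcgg
The motif lay 94 to 87 bases before the start of Alb, on the opposite strand, and 89 to 82 bases before that of Afp, on the strand shown. Of the 8 members whose promoters were searched, 7 held it (Afp, Ahsg, Alb, Apoa2, Apob, Fgb and Rbp4). Of 32851 promoters of the same length 10.8% held it. Trf and Ttr were not searched, so the motif counts cover 8 of the 10 members. Apoa2 and Rbp4 have 2 promoter windows each in the table, which gives them more chances of a match. The letters of the TATA box, TATAAA, were found anywhere in the window in 4 members and in 13.6% of all promoters. They lay 28 to 23 bases before the start in Rbp4, 7 to 2 in Afp, 60 to 55 in Apob and 212 to 207 in Apoa2. A site of the erythroid factor GATA1, AGATAA, was found in 1 member, Ahsg, and in 11.2% of all promoters. CAAAGTCCA, an HNF4 site, was found in 0 (0.475%). A match describes letters in the window and is not evidence that a factor was bound.

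Apoa1 and Apoa2 encode the main proteins of high-density lipoprotein. Apoa2 read 9.12, 10.05 and 9.50 in Th3/Th3 cells and 9.06, 9.64 and 10.30 in Th3/+ cells, against 9.23, 9.21 and 9.93 in wild type cells. Apoa1 read 7.35, 8.02 and 7.59 in Th3/Th3 cells and 7.60, 7.67 and 8.45 in Th3/+ cells, against 7.48, 7.60 and 8.13 in wild type cells. The same array, Th3/+ replicate 3, was the highest for both, and the values of the 2 genes followed each other over the arrays (r = 0.93 over 9 arrays). Their means over replicates were close in the 3 genotypes, for Apoa2 9.56 ± 0.47 in Th3/Th3 and 9.67 ± 0.62 in Th3/+, against 9.46 ± 0.41 in wild type (SD, n = 3 each). Apob, below the filter level throughout, stayed between 4.25 and 4.38 on the 9 arrays.

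Ttr encodes transthyretin, which carries thyroid hormone and binds the complex of retinol with the product of Rbp4, retinol-binding protein. Ttr read 6.71, 7.24 and 6.34 in Th3/Th3 cells and 6.76, 7.26 and 7.48 in Th3/+ cells, against 6.69, 6.92 and 7.05 in wild type cells. Rbp4 read 6.50, 7.20 and 6.53 in Th3/Th3 cells and 6.09, 6.58 and 7.08 in Th3/+ cells, against 6.65, 6.52 and 6.66 in wild type cells. The Rbp4 spread was small in wild type (SD 0.076) and larger in Th3/Th3 and Th3/+ (SD 0.39 and 0.49, n = 3 each). Trf encodes transferrin, the ligand of the CD71 used in the sort. It read 6.64, 6.56 and 6.72 in Th3/Th3 cells and 6.71, 6.93 and 6.93 in Th3/+ cells, against 6.72, 6.65 and 7.12 in wild type cells. Its highest array was wild type replicate 3, and its span over the 9 arrays, 1.48-fold, was narrower than that of Ttr (2.20-fold) or Rbp4 (2.15-fold).

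Ahsg encodes fetuin-A, a mineral-binding protein of fetal plasma. It read 5.26, 4.84 and 5.94 in Th3/Th3 cells and 5.34, 5.54 and 5.81 in Th3/+ cells, against 4.92, 5.52 and 5.34 in wild type cells. The highest and the lowest of the 9 arrays were both Th3/Th3 arrays, replicates 3 and 2. Fgb, the beta chain of fibrinogen, stayed between 4.79 and 5.31 on all arrays, 0.24 to 0.75 above the filter level. Its neighbour Fga, the alpha chain, and Fgg, the gamma chain, both chosen for mention after their values were seen, averaged 4.88 and 4.31, and Fgg did not pass the filter.

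**Figure D1:**
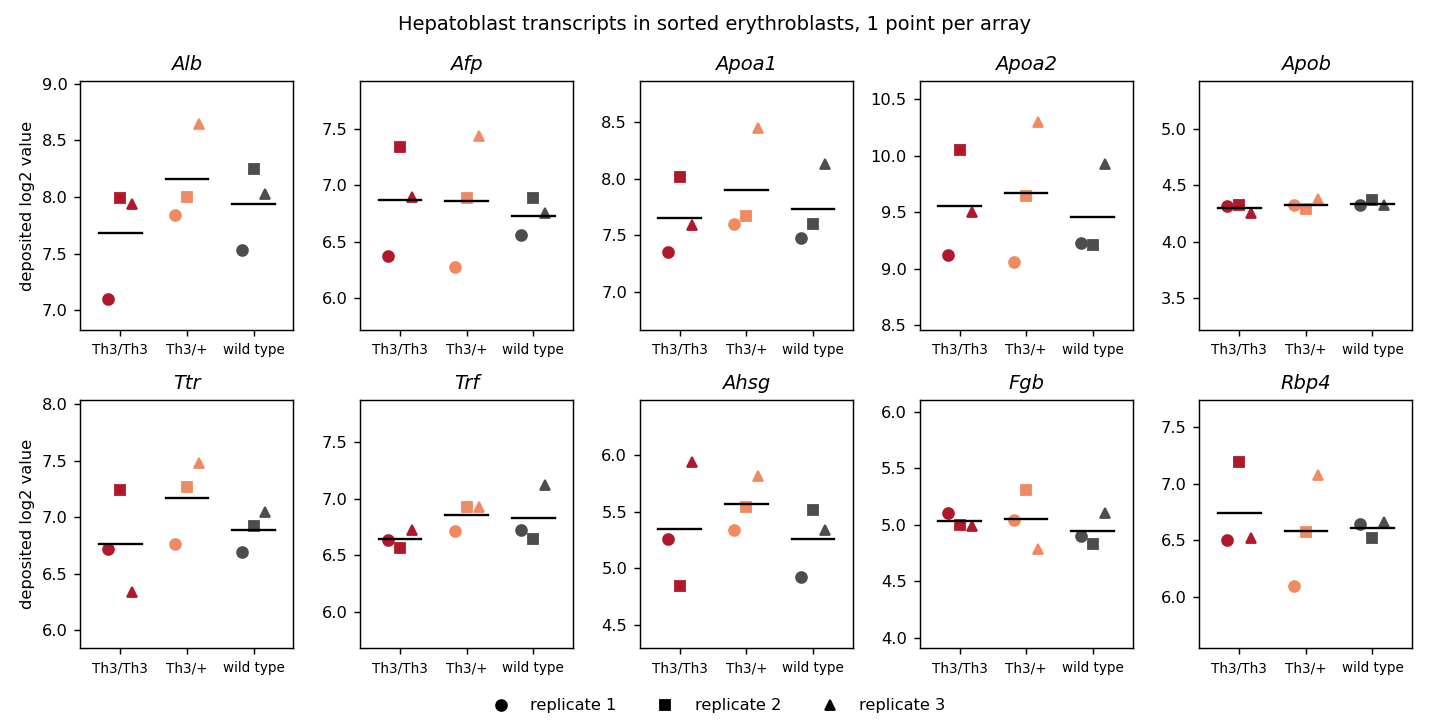
Deposited log2 values (vertical axes, each spanning 2.2 log2 units around the gene's mean) of the 10 hepatoblast transcripts by genotype, with 1 symbol per array (circle, square and triangle for replicates 1, 2 and 3) and a bar at the mean of 3 arrays. For Alb, Afp, Apoa1, Apoa2 and Ttr the highest point is Th3/+ replicate 3, and the 3 genotypes overlap for every gene.

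The comparison of the genotypes asked whether the hepatoblast signal differed with the number of Th3 alleles. In Th3/Th3 against wild type cells 0 of 9 tested members were called (limma, adjusted p under 0.05), against 12.3% of the 17742 probe sets tested (7.31% higher and 4.98% lower). At an unadjusted p under 0.05 the count was also 0, against 25.7% of all probe sets, and the arrays of the genotypes did not overlap for 0 members, against 27.5% of all. Of the 10 differences 5 were above and 5 below 0, with a median of 0.022, beside a median of 0 over all probe sets tested (quartiles -0.13 and 0.18). The lowest was Alb at -0.26 (SE 0.30, 95% interval -0.93 to 0.42, adjusted p = 0.664) and the highest Afp at 0.14 (SE 0.30, interval -0.55 to 0.82, adjusted p = 0.833). Leaving out 1 array turned the sign of the median, which was -0.12 without Th3/Th3 replicate 2 and -0.066 and -0.022 without wild type replicates 1 and 2. Alb was 0.032 without Th3/Th3 replicate 1, and Afp -0.098 without Th3/Th3 replicate 2. Trf had the smallest adjusted p, 0.460, with a difference of -0.19 (interval -0.51 to 0.13). Over the 9 members the intervals reached from a fold of 0.523 (Alb) to 1.84 (Apoa2), which is how wide the uncertainty was with 3 arrays per genotype.

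In Th3/+ against wild type cells 0 of 9 members were called, against 0.0282% of all probe sets, and 0 passed an unadjusted p under 0.05, against 3.64% of all. The arrays did not overlap for 0 members, against 7.63% of all. Here 8 of 10 differences were above 0, with a median of 0.15 beside 0.0046 over all probe sets. Ahsg (0.31, interval -0.28 to 0.89) and Ttr (0.28, interval -0.27 to 0.84) had the largest, and the adjusted p was 1 for every member. This median moved with several arrays. It was -0.022 without Th3/+ replicate 3 and 0.36 without Th3/+ replicate 1, and 0.044, 0.096 and 0.23 without wild type replicates 1, 2 and 3.

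In Th3/Th3 against Th3/+ cells 0 of 9 members were called, against 7.27% of all probe sets (4.01% higher and 3.26% lower), and 0 passed an unadjusted p under 0.05, against 21.1% of all. The arrays did not overlap for 0 members, against 22.8% of all. Of the 10 differences 8 were below 0, with a median of -0.16 beside 0.00043 over all probe sets. Alb lay lowest at -0.49 (a fold of 0.714, SE 0.30, interval -1.16 to 0.19, adjusted p = 0.411), then Ttr at -0.40 (interval -0.96 to 0.15, adjusted p = 0.408). Without Th3/+ replicate 3 the median was -0.052, without Th3/+ replicate 1 it was -0.31 and without Th3/Th3 replicate 1 it was -0.076. This comparison and the one before it share the 3 Th3/+ arrays, and the first 2 share the 3 wild type arrays, so their members' values are not independent.

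**Figure D2:**
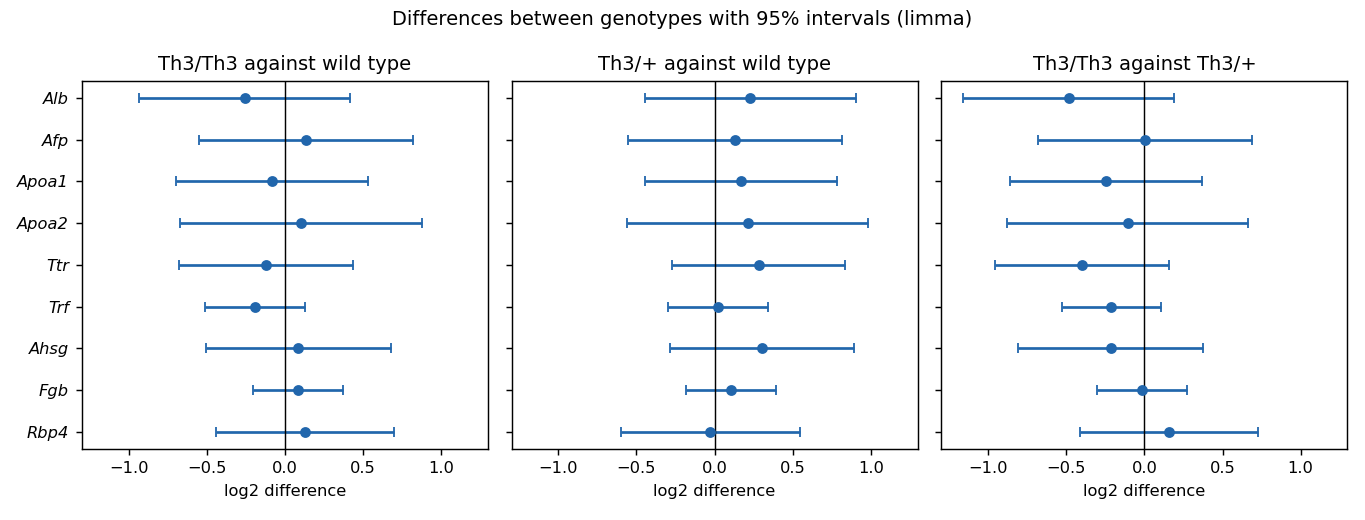
Log2 differences between genotypes (horizontal axes; the first genotype minus the second) for the 9 tested hepatoblast transcripts, with 95% intervals from limma on 9 arrays. Every interval includes 0, and the widest reach to -1.16 for Alb in Th3/Th3 against Th3/+ and to 0.98 for Apoa2 in Th3/+ against wild type.

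Single arrays ranged more widely than the genotype means. A mean of 3 arrays varies less than a single array in any case, so the 2 are not compared on equal terms. The mean deviation of the 10 members from their own means over 9 arrays was -0.27, 0.14 and -0.045 on Th3/Th3 replicates 1, 2 and 3 and -0.21, 0.096 and 0.41 on the Th3/+ replicates, against -0.22, -0.041 and 0.13 on the wild type replicates. The range within a genotype was thus 0.41 in Th3/Th3 and 0.62 in Th3/+, against 0.34 in wild type, while the genotype means were -0.057 and 0.10, against -0.043. The extremes were Th3/+ replicate 3, where 8 of the 9 tested members lay above their mean, and Th3/Th3 replicate 1, where 8 of 9 lay below. Fgb was the exception on both arrays. Replicate 1 was also low in the other two genotypes, with 8 of 9 members below their mean on each of these arrays.

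Alb, Afp, Apoa1, Apoa2, Ttr and Rbp4, a set picked after the values were seen, moved most closely together. The 15 pairs among these 6 genes had r from 0.42 to 0.93 (median 0.75) over the 9 arrays, which is a description with no test. On Th3/+ replicate 3 and Th3/Th3 replicate 2 all 6 lay above their means (by 0.62 and 0.36 on average), and on Th3/+ replicate 1 and Th3/Th3 replicate 1 all 6 lay below (-0.34 and -0.41). The set deviated by 0.064 on Th3/+ replicate 2 and by -0.14 on Th3/Th3 replicate 3, and by -0.25, -0.045 and 0.15 on the wild type replicates. Ahsg, Fgb and Trf followed the 6 less closely, with r from -0.41 to 0.54 (median 0.083) over 18 pairs.

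**Figure D3:**
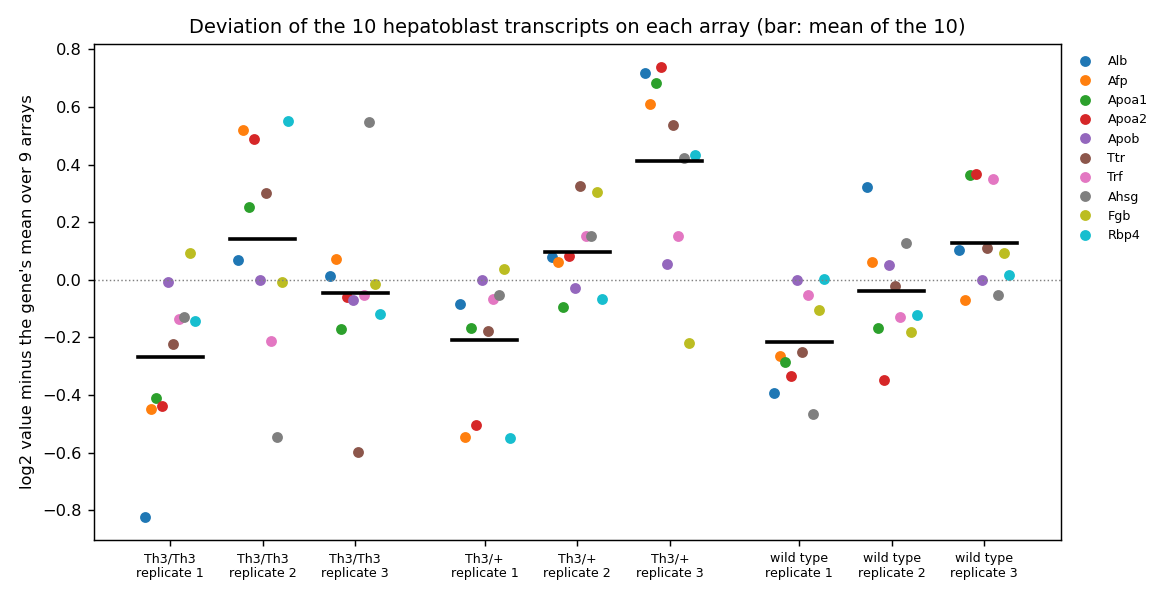
Deviation of each hepatoblast transcript from its mean over 9 arrays (vertical axis, log2) on each array (horizontal axis), coloured by gene, with a bar at the mean of the 10. The bar is highest on Th3/+ replicate 3 (0.41) and lowest on Th3/Th3 replicate 1 (-0.27), and replicate 1 is the lowest array of each genotype.

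The spread between replicates of 1 genotype was large for most members. The SD within genotypes was 0.51 for Apoa2, 0.45 for Afp, 0.43 for Alb and 0.39 for Apoa1, against a median of 0.16 over all tested probe sets. These 4 stood at the 94.3rd to 97.9th percentile of all probe sets, Ahsg, Rbp4 and Ttr at the 92.4th to 94.3rd, and Trf and Fgb, with SDs of 0.17 and 0.18, at the 56.1st and 57.8th. Of the variation of Apoa2 over the 9 arrays 4.17% lay between genotypes, of Afp 3.00%, of Rbp4 4.98% and of Apoa1 9.68%. The largest shares between genotypes were those of Trf (31.6%) and Ttr (25.5%), and the median over all tested probe sets was 31.7%. Over the 9 arrays 7 of the 9 tested members spanned more than 1 log2 unit, as did 19.9% of all tested probe sets.

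Properties of the arrays went with this signal on some arrays and not on others. The interquartile range of all values was 2.68, 2.82 and 2.89 on Th3/Th3 replicates 1, 2 and 3 and 2.59, 2.75 and 2.78 on the Th3/+ replicates, against 2.66, 2.65 and 2.74 on the wild type replicates. It was narrowest on replicate 1 in both mutant genotypes, where the members were low, but on replicate 2 in wild type. It was widest of all on Th3/Th3 replicate 3, where the members were near their means (-0.045). On the second principal component, Th3/Th3 replicate 1 and Th3/+ replicate 1 stood apart from the other arrays (25.5 and 20.5, against -14.9 to 7.71 on the others). Wild type replicate 1, where the members were about as low as on Th3/+ replicate 1, stood at 7.71 on that component. The part of these array properties in the result was not tested. After quantile normalization, which gives all arrays the same distribution, the members' mean deviation was -0.27, 0.10 and -0.10 on the Th3/Th3 arrays and -0.16, 0.086 and 0.39 on the Th3/+ arrays, against -0.19, -0.0030 and 0.13 on the wild type arrays.

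Other genes of the fetal liver were examined from 4 lists of secreted proteins, transcription factors, surface and structural genes, and metabolic enzymes. Of 115 genes 104 had a probe set of their own and 60 passed the filter, and 0 were called in each of the 3 comparisons, against 12.3% of all probe sets in Th3/Th3 against wild type, 0.0282% in Th3/+ against wild type and 7.27% in Th3/Th3 against Th3/+. Among 28 secreted proteins the median difference was -0.079 in Th3/Th3 and 0.017 in Th3/+ against wild type. Serpina6, which encodes corticosteroid-binding globulin, and Ambp, the precursor of alpha-1-microglobulin and bikunin, had the highest means of that list. Serpina6 read 5.26, 6.83 and 7.08 in Th3/Th3 cells and 6.99, 6.87 and 7.68 in Th3/+ cells, against 6.04, 6.30 and 7.16 in wild type cells. Ambp read 5.62, 6.60 and 6.52 in Th3/Th3 cells and 6.33, 6.16 and 7.44 in Th3/+ cells, against 5.69, 6.28 and 6.59 in wild type cells. Both were highest on Th3/+ replicate 3 and lowest on Th3/Th3 replicate 1, as Alb was, and their r with the mean of the 9 tested members was 0.77 and 0.88 over 9 arrays. The list as a whole had r from -0.79 to 0.88 with a median of 0.099, and 12 of its 28 genes had an r below 0. In this list 3 of 28 genes spanned more than 1 log2 unit, and the median span was 0.42.

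The transcription factors spanned less. The 13 that passed the filter spanned 0.013 to 0.64 log2 units over the 9 arrays (median 0.39), and 11 of 13 had an r below 0 with the members' mean. Onecut2 and Gata4, with the highest means of the list, lay between 5.93 and 6.31 and between 5.93 and 6.29. Hnf4a, a master regulator of hepatocyte genes that was chosen for mention after its values were seen, lay between 5.59 and 5.71 on all arrays, and Foxa2, chosen likewise, between 5.29 and 5.31. Hnf4a held exactly 5.68199 and Onecut2 exactly 6.23038 on several arrays, and Foxa2 held exactly 5.2929 on most. Their narrow spans are thus in part those of equal deposited values. The means of the list, 4.57 to 6.21, lay within those of the genes of other organs (4.51 to 7.06). A narrow span here does not show stable expression. The 8 surface and structural genes spanned at most 0.59 units. The highest means there were those of Tfr2, a second transferrin receptor that erythroid cells also express, and Krt8, a keratin of simple epithelia. Tfr2 held exactly 6.61263 on several arrays. Among 11 metabolic enzymes, Asl of the urea cycle had the highest mean (6.41) and an r of 0.86 with the members' mean, the highest of the list, and Apobec2 followed with a mean of 5.80. An r below 0 was found for 7 of the 11 enzymes (median -0.16, lowest -0.74) and for 6 of the 8 surface and structural genes. The 13 measured genes of other organs that passed the filter spanned 0.15 to 0.70 units.

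The mean deviation of 12 macrophage genes was -0.39, -0.37 and -0.43 on the Th3/Th3 arrays and 0.49, 0.43 and -0.14 on the Th3/+ arrays, against 0.25, 0.25 and -0.090 on the wild type arrays. Its lowest arrays were the 3 Th3/Th3 arrays and its highest Th3/+ replicate 1, on which the hepatoblast transcripts were low. In Th3/Th3 against wild type cells 3 of these 12 genes were called lower, against 4.98% of all probe sets, and 4 of 12 against Th3/+, against 3.26% of all. C1qb, a complement subunit made by macrophages, fell by 0.90 (adjusted p = 0.00935) in Th3/Th3 cells against wild type, while C1qa and Adgre1 differed by -0.23 and -0.34 (adjusted p = 0.496 and 0.363) and Csf1r did not pass the filter. Of 17 erythroblast genes 15 were called lower in Th3/Th3 against wild type cells and 13 against Th3/+ cells. The mean deviation of that list stood at -0.65 to -0.39 on the Th3/Th3 arrays and 0.18 to 0.26 on the Th3/+ arrays, against 0.23 to 0.37 on the wild type arrays.

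Of endothelial markers 5 of 13 passed the filter, Pecam1 among them at a mean of 4.63, and Cdh5 did not. Their mean deviation stayed between -0.093 and -0.0015 on the Th3/Th3 arrays and -0.013 and 0.066 on the Th3/+ arrays, against -0.0043 and 0.074 on the wild type arrays. Of stromal markers 8 of 14 passed, and the defining genes Dcn and Pdgfrb did not. Col1a1, a collagen chain, held 6.28 to 6.58 on the 9 arrays. Reln, a secreted glycoprotein gene picked after its values were seen, was the 1 called gene of the 8 and fell by 1.19 in Th3/Th3 against wild type (limma, adjusted p = 0.00625) and by 0.97 against Th3/+ (adjusted p = 0.0238). Of all probe sets 12.3% and 7.27% were called in these comparisons, so 1 call of 8 was not read as a result about stromal genes. The median difference of the 8 was -0.12 and -0.081 in these comparisons. The mean deviation of the 8 lay between -0.19 and -0.047 in Th3/Th3 and between 0.0014 and 0.083 in Th3/+, against 0.047 to 0.18 in wild type. The 5 measured megakaryocyte genes had a mean deviation of -0.30 to -0.16 on the Th3/Th3 arrays and 0.052 to 0.24 on the Th3/+ arrays, against -0.023 to 0.27 on the wild type arrays, and 0 of the 5 were called in any comparison. In Th3/Th3 minus wild type, Itga2b differed by 0.093, whereas Pf4, Gp9, Ppbp and Vwf, picked after their values were seen, differed by -0.67, -0.43, -0.33 and -0.12. The r with the members' mean over 9 arrays was 0.64 for Pf4 and 0.62 for Ppbp, but 0.46 for Itga2b, 0.073 for Vwf and -0.11 for Gp9. It was 0.65 for the granulocyte gene Mpo, which averaged 6.15. The other granulocyte and mast cell genes that passed the filter had r from -0.42 to 0.31, most of them below 0. Cd3e of T cells averaged 4.93, and neither it nor Mpo was called in any comparison. The part of any of these cell types in the hepatoblast signal was not tested.

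**Figure D4:**
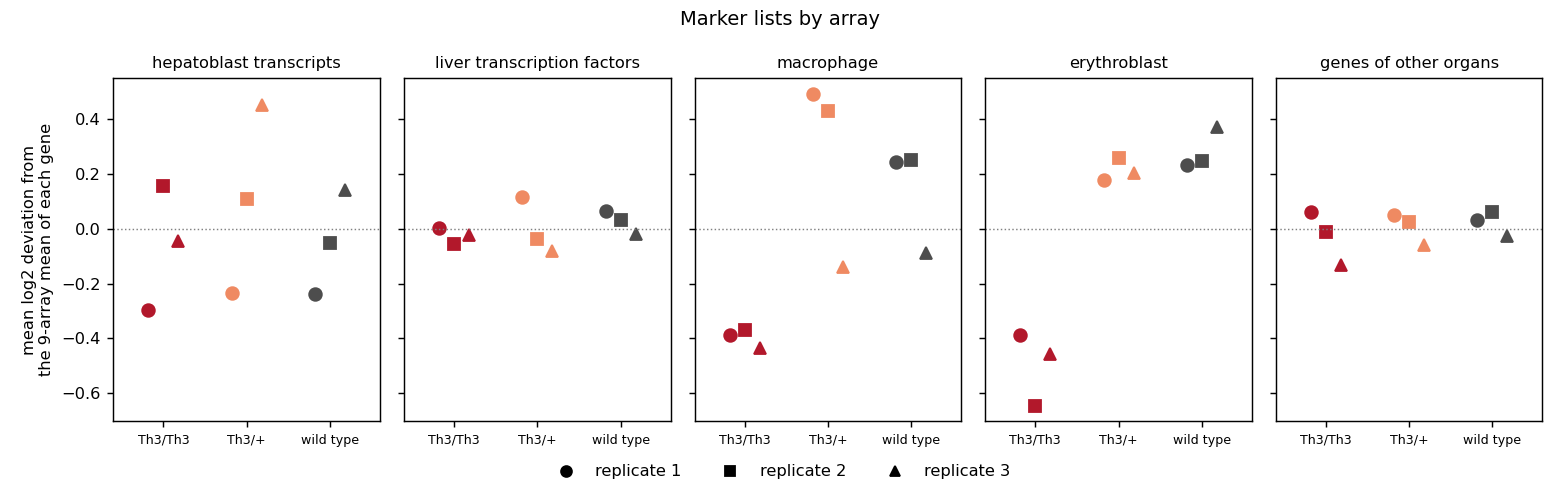
Mean log2 deviation from each gene's 9-array mean (vertical axis) for 5 gene lists by genotype, with 1 symbol per array; only genes that passed the filter enter, hence 9 of the 10 hepatoblast transcripts. The macrophage and erythroblast lists are low on all 3 Th3/Th3 arrays, whereas the hepatoblast transcripts range from -0.30 to 0.16 on those arrays and peak on Th3/+ replicate 3 at 0.45.

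The genes whose values were most like the mean of the 9 tested members over the 9 arrays were Metap1d (r = 0.93), Zfc3h1 (0.92), Dhx36 (0.92), Ebna1bp2 (0.91) and Vps51 (0.91), out of 12889 genes compared (predicted genes were not named). With each genotype's mean taken off they were Rpf2 (0.99), Slx4ip (0.99), Zfc3h1 (0.98), Cetn2 (0.98) and Txn1 (0.98). None of these genes stands on the lists of liver genes. Ambp ranked 13 and Asl 34 over the 9 arrays, and these were the liver genes among the 50 most alike (4% of the 50, and 3.33% of the 60 liver genes compared, where the 50 are 0.388% of all genes compared). With the genotype means taken off, 0 of the 50 were on those lists. With so many genes and 9 arrays, r values of this size are a description of these arrays and were not tested.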

How the data were processed

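Gene expression was measured on whole-transcript arrays from 35 ng of RNA per sample, amplified and labelled with biotin, per the labels. The authors deposited 1 log2 value per probe set and array. The log2 unit was read from the range of the deposited values. MAS5 is named in the submitters' processing notes, while no source used here gives the background correction or the summary method. Of all probe sets 60.9%, and 4 of the 10 members (Afp, Apob, Trf and Ahsg), held exactly equal values on at least 2 arrays. Arrays have no read depth, and their number limits the precision.

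Of 35556 probe sets, 6617 with identifiers below the first annotated one were left out as a control block. Of the other 28939, 21789 carry a single gene symbol, 1621 more than 1, and 5529 have no entry in the platform annotation. Gene identifiers of 21698 matched RefSeq (GRCm38.p6), which changed 0 symbols. The platform annotation names no build.

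On at least 3 of 9 arrays 17742 probe sets exceeded the 40th percentile, and these were fitted with 1 mean per genotype (limma 3.58.1 in R 4.3.3, lmFit and eBayes with a mean-variance trend). Tests were two-sided with Benjamini-Hochberg adjustment over all 17742, and an adjusted p under 0.05 was called. The p-values rest on the spread between replicates of a genotype, estimated for each probe set from all 9 arrays together. The eBayes step draws that spread towards a trend over all tested probe sets. The labels call the replicates biological, and how much of their spread is technical was not tested. With 3 against 3, an exact permutation cannot reach a p under 0.05. The procedure was tested on simulated data.

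The members and gene lists were chosen with earlier results of these data known. Genes were named by a rule: all members, up to 4 called genes of each liver list or else the 2 with the highest means, the 5 genes most alike by Pearson r in each of 2 ways, and set markers of other cell types. Fga, Fgg, Hnf4a, Foxa2, Reln, Pf4, Gp9, Ppbp, Vwf, Tal1, Slc4a1 and Gfap are named outside it. 1 planned motif and 1 planned marker are not reported here. Protein sequences were not used here.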

Additional observations from a re-analysis of the deposited data

How the results depend on the processing

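In all 18 alternatives 0 members were called in each of the 3 comparisons, with a smallest adjusted p of 0.162 (limma) for Alb in Th3/Th3 against Th3/+ with the replicate block. The alternatives were no filter, a stricter filter, quantile normalization, no mean-variance trend, only the genotypes compared, the replicate block, array weights, leaving out each array, leaving out Th3/+ and Th3/Th3 replicate 1, and, chosen after seeing the data, leaving out all 3 arrays numbered 1. Averaging probe sets changes nothing, since each member has 1. The members' median difference ranged from -0.12 to 0.12 for Th3/Th3 against wild type, from -0.022 to 0.36 for Th3/+ against wild type and from -0.31 to -0.052 for Th3/Th3 against Th3/+. Its sign thus changed under some alternatives in both comparisons against wild type. The members' mean deviation on single arrays had an SD of 0.24 between replicates, pooled over genotypes, which is not the same measure.

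Same-numbered arrays deviated together in part (r from -0.13 to 0.36 over probe sets, under 0.1 for 3 of the 9 pairs). Only the pair of wild type and Th3/+ replicate 2 had an r below 0. The labels give no pairing, and the main fit treated these arrays as unpaired. Whether they share more than a number was not tested. The number held 64.3% of the variation of Afp, 58.6% of Alb, 57.4% of Apoa2 and 50.1% of Apoa1 over the 9 arrays, against a median of 23.0% over all tested probe sets. For the other tested members it held 42.1% (Ahsg), 39.2% (Trf), 28.2% (Rbp4), 26.6% (Ttr) and 5.61% (Fgb). The replicate block gave 2470, 6 and 1513 called probe sets in the 3 comparisons (Th3/Th3 and then Th3/+ against wild type, and Th3/Th3 against Th3/+), where the fit without it gave 2181, 5 and 1290, and changed no member's call. Over all alternatives the count of called probe sets ranged from 1447 to 2545, from 0 to 22 and from 592 to 1892. Th3/Th3 against wild type gave 1447 without wild type replicate 2. Th3/+ against wild type gave 10 with the stricter filter, 22 with array weights, 12 without Th3/+ replicate 1, 3 without wild type replicate 1 or without the 2 arrays, and 0 with only the genotypes compared or without all 3 arrays. Th3/Th3 against Th3/+ gave 592, 774 and 858 without Th3/+ replicate 2, Th3/+ replicate 3 and Th3/Th3 replicate 2, 798 with only the genotypes compared and 744 without all 3 arrays.

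Of 483 values of single members under an alternative (Fgb did not pass the stricter filter), 43 had the opposite sign, none of them called. For Th3/Th3 minus wild type, Apoa1 was 0.056 with array weights, Alb 0.032 and Apoa1 0.071 without the 2 arrays that stand apart, and Ahsg -0.037 without all 3 arrays numbered 1. For Th3/+ minus wild type, Rbp4 was 0.10, 0.22 and 0.24 under these settings in turn. For Th3/Th3 minus Th3/+, Afp was -0.065 after quantile normalization, -0.0042 with array weights, and -0.041 without the 2 arrays or without all 3. Leaving out 1 array each moved the Th3/Th3 minus wild type difference from -0.46 to 0.032 for Alb, -0.098 to 0.39 for Afp, -0.26 to 0.12 for Apoa1, -0.14 to 0.34 for Apoa2, -0.36 to 0.093 for Ttr, -0.21 to 0.34 for Ahsg and -0.097 to 0.25 for Rbp4. For Th3/+ minus wild type it ranged from -0.011 to 0.39 for Alb, -0.15 to 0.43 for Afp, -0.10 to 0.37 for Apoa1, -0.11 to 0.52 for Apoa2, -0.070 to 0.17 for Trf, -0.028 to 0.23 for Fgb and -0.27 to 0.22 for Rbp4. For Th3/Th3 minus Th3/+ it ranged from -0.29 to 0.29 for Afp, -0.43 to 0.022 for Apoa1, -0.41 to 0.21 for Apoa2, -0.51 to 0.034 for Ahsg, -0.15 to 0.12 for Fgb and -0.088 to 0.40 for Rbp4. The cause of these sign changes was not tested.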
